A study of Mus musculus with 8 samples.

Results

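The genes described here encode the machinery of oxidative phosphorylation, the respiratory chain and ATP synthase of the mitochondrion. They were taken by symbol from the protein-coding genes of the deposited tables: every symbol starting mt-, and every nuclear symbol of the Ndufa, Ndufb, Ndufc, Ndufs and Ndufv series, Sdha to Sdhd, the Uqcr series, the Cox4 to Cox8 series and the Atp5 series. This gave 98 genes of 54532 in the tables, of which 22046 are protein coding. Of the 98, 13 lie on the mitochondrial chromosome and 85 in the nucleus. The mitochondrial genes encode 7 subunits of complex I, 1 of complex III, 3 of complex IV and 2 of complex V. By symbol, 37, 8, 18 and 18 nuclear genes were assigned to these complexes, and 4 to complex II. Such genes are not all distinct subunits: complex I here includes Ndufa4 and Ndufa4l2, and complex V a second identifier of Atp5o. The choice rests on symbols, not on measured values, although earlier results of these data were known when it was made.

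Expression was measured by RNA sequencing of poly(A)-selected RNA from rd10 mouse retina; rd10 mice carry a mutated Pde6b, a gene of the rod phosphodiesterase, and lose rods and later cones. One group, sIVs (the series title spells this out as small intracellular vesicles), has 4 libraries numbered 2 to 5, and the control group, PBS (read as phosphate-buffered saline), has 4 numbered 1 to 4. All 8 libraries share the rd10 genotype, and no unaffected strain is among them. The age and sex of the mice, the source, dose and route of the vesicles, the time of sampling and whether 1 library is 1 animal are not given in the sources used here. Every p-value therefore measures only how these 8 libraries vary.

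Complexes I to IV pass electrons from NADH and succinate to oxygen, and complexes I, III and IV pump protons across the inner mitochondrial membrane. Complex V, the ATP synthase, uses the returning protons to make ATP. Both strands of the circular mitochondrial chromosome are transcribed as long precursors that are cut into separate RNAs, whereas the nuclear subunits are transcribed from separate promoters, made in the cytosol and imported. In the retina mitochondria are packed into photoreceptor inner segments, whose ion pumping and phototransduction have a high demand for ATP.

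Total counts ran from 14640235 to 16989737 per library, and 17725 genes had enough counts to be tested. All 14 rod markers examined were measured in every group, and the summed level of the list was 35890 to 42860 CPM (counts scaled to the normalised library size) in PBS and 8877 to 40760 CPM in sIVs. Set against the PBS mean, log2 medians of the rod list were 0.08, -1.93, -2.01 and -0.26 in sIVs 2 to 5. Reactive glia markers had medians of 0.59, 1.5, 1.47 and 0.90 in sIVs 2 to 5 and -0.49 to 0.35 in PBS, with a summed level of 746.8 to 1499 CPM in PBS and 1546 to 2988 CPM in sIVs. The median and summed level of the cone markers were lower in every sIVs library than in every PBS library. Medians were -0.21, -0.94, -0.81 and -0.50 in sIVs 2 to 5 and -0.18 to 0.36 in PBS, PBS 4 highest and sIVs 2 close to PBS 1. The summed level was 2064 to 2570 CPM in PBS and 1410 to 1925 CPM in sIVs. Of the 10 markers, 8 had a negative and 2 a positive log2 fold change. The groups stood apart downward for 3 of 10 (3.36% of all genes), and 6 of 10 were lower at an unadjusted p under 0.05 (5.63% of all genes). Ganglion cell markers had medians of -0.21, -0.21, -0.04 and -0.19 in sIVs and -0.13 to 0.28 in PBS, with 3 of 10 lower at that p and summed levels of 1171 to 1521 CPM and 1085 to 1153 CPM. No marker of these 4 lists was at 0. The part of these shifts in the values that follow was not tested, and in bulk retina fewer cells of a type and less RNA per cell cannot be told apart.

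Of the 98 genes, 94 could be tested: all 13 mitochondrial and 81 nuclear. Cox6a2, the heart and muscle form of a cytochrome oxidase subunit, had 4 or 5 counts in 7 libraries and 0 in sIVs 5. Cox7b2 had 2 counts in PBS 4, 1 in sIVs 5 and none elsewhere. Cox8c and a second gene identifier carrying the symbol Atp5o were listed at 0 in all 8 libraries, where a count of 0 allows up to 3 counts, or 0.177 to 0.205 CPM. That limit covers counting error only.

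Several mitochondrial genes have near-identical stretches on nuclear chromosome 1, and the pairs are shown because a read from such a stretch fits both places. The capital marks the only position that differs over the aligned length, and a pair without capitals is identical. The sequences are from GENCODE M21 transcripts on GRCm38: mt-Nd3 at chrM:9459-9518, plus strand, and Gm28438 at chr1:24613060-24613119, minus strand; mt-Co1 at chrM:6390-6449, plus strand, and Gm29216 at chr1:24616129-24616188, minus strand; mt-Atp6 at chrM:7927-7986, plus strand, and Gm10925 at chr1:24614592-24614651, minus strand. Each line shows 60 bases, 5′ to 3′ along the transcript.
mt-Nd3: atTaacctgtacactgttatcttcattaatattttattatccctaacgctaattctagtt
Gm28438: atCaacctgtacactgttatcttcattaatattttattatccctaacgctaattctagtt
mt-Co1: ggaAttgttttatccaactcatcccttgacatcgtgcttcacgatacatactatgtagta
Gm29216: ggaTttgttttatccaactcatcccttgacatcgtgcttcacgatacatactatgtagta
mt-Atp6: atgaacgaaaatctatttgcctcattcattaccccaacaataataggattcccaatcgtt
Gm10925: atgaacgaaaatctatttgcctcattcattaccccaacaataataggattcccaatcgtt

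The alignments span 681 bases of mt-Co2, 678 of mt-Atp6, 783 of mt-Co3 and 294 of mt-Nd4l at 100% identity, and 345 bases of mt-Nd3 at 99.71%. These alignments cover nearly the whole of each of the 5 genes. For mt-Nd4 the aligned stretch was 876 bases of 1378, and for mt-Co1 it was 483 bases of 1545. Less similar copies lay on other chromosomes: Gm13340 on chromosome 2 aligned over 1545 bases of mt-Co1 at 97.605% identity, Gm13341 on chromosome 2 over 684 bases of mt-Co2 at 95.906%, Gm13339 on chromosome 2 over 510 bases of mt-Nd2 at 96.667%, and Gm4076 on chromosome 13 over 954 bases of mt-Nd5 at 95.178%. Over the 8 libraries Gm13339 held 71 counts against 244295 for mt-Nd2, and Gm4076 9 counts against 296710 for mt-Nd5. No annotated transcript aligned to mt-Nd1, mt-Nd6, mt-Cytb or mt-Atp8 over 100 bases or more at 95% identity or more. The authors' handling of reads with several alignments is not given in the sources used here.

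Levels are compared between genes as FPKM, the authors' unit corrected for gene length and library depth. In PBS mt-Co1, the catalytic core of cytochrome oxidase, had the highest level at 5540 ± 546 FPKM (SD, n = 4). It was followed by mt-Cytb, the cytochrome b of complex III, at 4563 ± 522 FPKM, and by the complex I subunit mt-Nd1 at 4111 ± 351 FPKM. The complex I subunits mt-Nd2, mt-Nd6, mt-Nd5 and mt-Nd4 stood at 1992 ± 290, 1704 ± 289, 1472 ± 211 and 1459 ± 233 FPKM. Neighbours in the order differed by less than the larger of their SDs within these 4, and so did mt-Cytb and mt-Nd1. The 5 genes with annotated chromosome 1 copies over nearly their whole length formed a lower tier. These were mt-Co2 at 155 ± 15.1 FPKM, mt-Atp6 at 104 ± 14.9, mt-Nd3 at 95.9 ± 16.3, mt-Nd4l at 69.3 ± 20.1 and mt-Co3 at 69.2 ± 6.34.

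FPKM values also lay far apart within a complex. In complex IV the FPKM of mt-Co1 was 35.7 times that of mt-Co2, and in complex I that of mt-Nd4 was 21.1 times that of mt-Nd4l, although mt-Nd4l and mt-Nd4 overlap on the chromosome. The lowest was mt-Atp8, a small membrane subunit of ATP synthase that overlaps mt-Atp6, at 3.44 ± 1.16 FPKM. Between 98.83% and 98.99% of mitochondrial protein-coding counts in each library came from the 7 genes mt-Nd1, mt-Nd2, mt-Co1, mt-Nd4, mt-Nd5, mt-Nd6 and mt-Cytb. Over the 8 libraries the copy Gm10925 held 6451 counts against 7960 for mt-Atp6, and Gm28438 held 658 against 3990 for mt-Nd3. These FPKM rest on how reads were assigned between copies and between overlapping genes, so they need not show amounts of RNA. The part of shared reads in the 2 tiers was not tested.

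**Figure D1:**
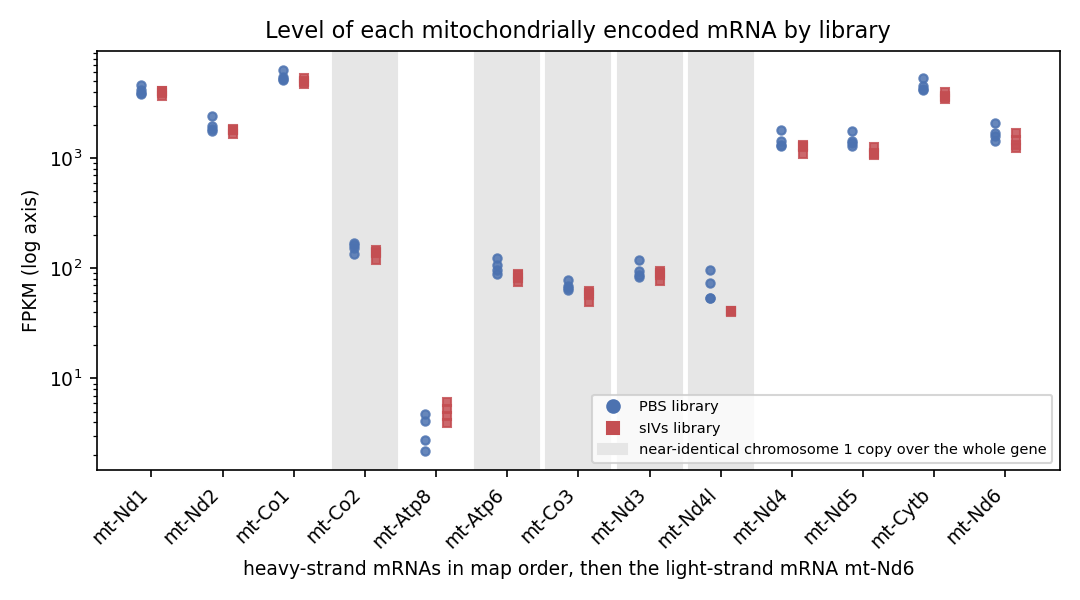
FPKM (log axis) of the 13 mitochondrial protein-coding genes in the 4 PBS libraries (blue circles) and the 4 sIVs libraries (red squares). Genes are in map order with the light-strand gene mt-Nd6 last. Grey bands mark the 5 genes with a near-identical annotated chromosome 1 copy over almost the whole gene. The 5 banded genes lie between 40.2 and 168.8 FPKM, mt-Atp8 below 10 FPKM, and the other 7 above 1000 FPKM.

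Mitochondrially encoded transcripts were mostly lower in sIVs than in PBS. The median log2 fold change of the 13 was -0.24, against -0.005 over all 17725 genes tested, and 12 of 13 were negative. With library totals as the only scaling, 11 of 13 were negative; that scaling moved the median of all genes to 0.07 and put mt-Nd1 at 0.007. None of the 13 passed edgeR's quasi-likelihood test with Benjamini-Hochberg adjustment over all genes, which called 0.0% of genes in either direction. Limma-voom called none either. DESeq2, which called 0.502% of all genes lower and 2.52% higher, called mt-Nd4l lower. Without sIVs 2, edgeR called 2.56% of all genes lower and 4.83% higher, and without sIVs 3 and 4 it called 0.00548% and 0.011%; neither setting called any of the 98. At an unadjusted p under 0.05, 5 of the 13 were lower and 0 higher, where 5.63% of all genes were lower and 9.61% higher. The same 5, mt-Nd4l, mt-Atp6, mt-Co3, mt-Nd5 and mt-Cytb, were lower in every sIVs library than in every PBS library, which held for 3.36% of all genes.

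The share of all counts taken by the 13 genes was 2.30%, 2.38%, 2.44% and 2.90% in PBS 1 to 4 and 2.31%, 2.24%, 2.38% and 2.20% in sIVs 2 to 5. The groups overlapped, with means of 2.50 ± 0.268% and 2.28 ± 0.0797% (SD, n = 4 each). PBS 4 stood above the other 7 libraries. Relative to the PBS mean, the median of the 13 genes was -0.16, -0.40, -0.21 and -0.18 on the log2 scale in sIVs 2 to 5 and ran from -0.16 to 0.23 in PBS. All 4 sIVs libraries were thus below the PBS mean, sIVs 3 lowest, and sIVs 2 overlapped PBS 1.

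The complex III gene mt-Cytb (mitochondrial chromosome, 14145 to 15288, plus strand) stood at 4809, 4838, 5183 and 6130 CPM in PBS 1 to 4 and at 4586, 3962, 4097 and 4215 CPM in sIVs 2 to 5. Every sIVs library was below every PBS library. The log2 fold change was -0.31 ± 0.12 (SE), with an adjusted p of 0.282 by edgeR.

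The complex I gene mt-Nd5 (11742 to 13565, plus strand), which encodes a proton-pumping membrane subunit, stood at 2363, 2524, 2626 and 3267 CPM in the PBS libraries and 2323, 1966, 2045 and 2001 CPM in sIVs. The sIVs 2 value lay just under that of PBS 1, and the other sIVs libraries were lower by a wider margin. Its log2 fold change was -0.37 ± 0.13 (adjusted p = 0.241, edgeR). Its end overlaps mt-Nd6 on the opposite strand. Since the strand setting of the counting was not given, reads of the overlap cannot be told apart. For the same reason, RNA of either strand may be counted over the whole of mt-Nd6. The level, fold change and ratios of mt-Nd6 are uncertain to that extent. mt-Nd6 itself, the only protein-coding gene on the light strand, had a log2 fold change of -0.26 ± 0.14 (adjusted p = 0.417, edgeR) with overlapping groups.

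The largest difference among the 13 was in mt-Nd4l (9877 to 10173, plus strand), a small membrane subunit of complex I. It stood at 15.9, 16.2, 28.6 and 21.9 CPM in the PBS libraries and 12.1, 12.0, 12.2 and 12.3 CPM in sIVs. The 4 sIVs libraries were almost equal and the PBS libraries spread widely, with PBS 3 highest. The log2 fold change was -0.76 ± 0.18 with an adjusted p of 0.167 by edgeR. DESeq2 gave it -0.76 with an adjusted p of 0.0113, in a table where 0.502% of genes were called lower, and over 20 alternative settings its adjusted p ran from 0.0113 to 0.42. Without PBS 3 the log2 fold change was -0.57, with an edgeR adjusted p of 0.413. The gene mt-Nd4, which overlaps mt-Nd4l on the chromosome, gave -0.24 ± 0.13 with overlapping groups. How reads were divided between these overlapping genes was not tested.

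The ATP synthase subunit gene mt-Atp6 (7927 to 8607, plus strand), which encodes part of the proton channel, stood at 60.4, 73.6, 66.0 and 84.5 CPM in the PBS libraries and 59.0, 51.7, 60.2 and 55.7 CPM in sIVs. The groups did not overlap, by a narrow margin between PBS 1 and sIVs 4. Its log2 fold change was -0.33 ± 0.11 (adjusted p = 0.217, edgeR). The cytochrome oxidase subunit gene mt-Co3 (8607 to 9390, plus strand) stood at 52.0, 49.7, 54.5 and 61.6 CPM in the PBS libraries and 48.6, 39.0, 44.7 and 47.1 CPM in sIVs. Its groups also stood apart by a narrow margin, between PBS 2 and sIVs 2, with a log2 fold change of -0.28 ± 0.09 (adjusted p = 0.23, edgeR).

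The remaining complex I genes mt-Nd1, mt-Nd2, mt-Nd3 and mt-Nd4 had log2 fold changes of -0.07 ± 0.11, -0.17 ± 0.12, -0.14 ± 0.12 and -0.24 ± 0.13. The cytochrome oxidase genes mt-Co1 and mt-Co2 had -0.15 ± 0.12 and -0.19 ± 0.09. All 6 had overlapping groups and an unadjusted p above 0.05. The exception in sign was mt-Atp8, at 0.97, 0.45, 0.83 and 0.57 CPM in PBS and 1.07, 0.81, 0.94 and 1.25 CPM in sIVs, which gave 0.52 ± 0.30 (adjusted p = 0.441, edgeR). The groups overlapped, and at about 1 CPM it was the least precisely measured of the 13. The gene mt-Atp6, which overlaps mt-Atp8 on the chromosome, gave -0.33 ± 0.11.

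With sIVs 3 and 4, the libraries of low rod markers, left out, 12 of 13 genes were again negative. The log2 fold changes were then -0.25 for mt-Cytb, -0.32 for mt-Nd5, -0.76 for mt-Nd4l, -0.31 for mt-Atp6 and -0.19 for mt-Co3. None passed the adjusted threshold. The unadjusted edgeR p rose to 0.0672 for mt-Cytb and 0.0685 for mt-Co3, and stayed under 0.05 for mt-Nd5, mt-Nd4l and mt-Atp6. In sIVs 5 the rod and cone marker medians were -0.26 and -0.50, and their part in these values was not tested. With only PBS 4 left out, mt-Cytb, mt-Nd5, mt-Nd4l, mt-Atp6 and mt-Co3 gave -0.23, -0.27, -0.74, -0.24 and -0.22. The values of mt-Nd1, mt-Nd2 and mt-Nd3 were then -0.009, -0.07 and -0.02, and the median of the 13 was -0.143. Again 12 of 13 were negative and none passed.

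When each gene was summed with its chromosome 1 copy, an alternative chosen after seeing the data, mt-Atp6 gave -0.25 (adjusted p = 0.264) and mt-Nd4l -0.61 (adjusted p = 0.168, edgeR), both still without overlap of the groups. The sum for mt-Co3 gave -0.25 (adjusted p = 0.306, edgeR), with overlap. The copy of mt-Nd4l, Gm10222, gave -0.20 alone, and that of mt-Co2, Gm28661, gave 0.14. The sum for mt-Co2 was -0.06, closer to 0 than mt-Co2 alone. Without the 7 genes that have a chromosome 1 copy, the remaining 6 had a median of -0.22, and 2 of them, mt-Nd5 and mt-Cytb, were lower without overlap.

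**Figure D2:**
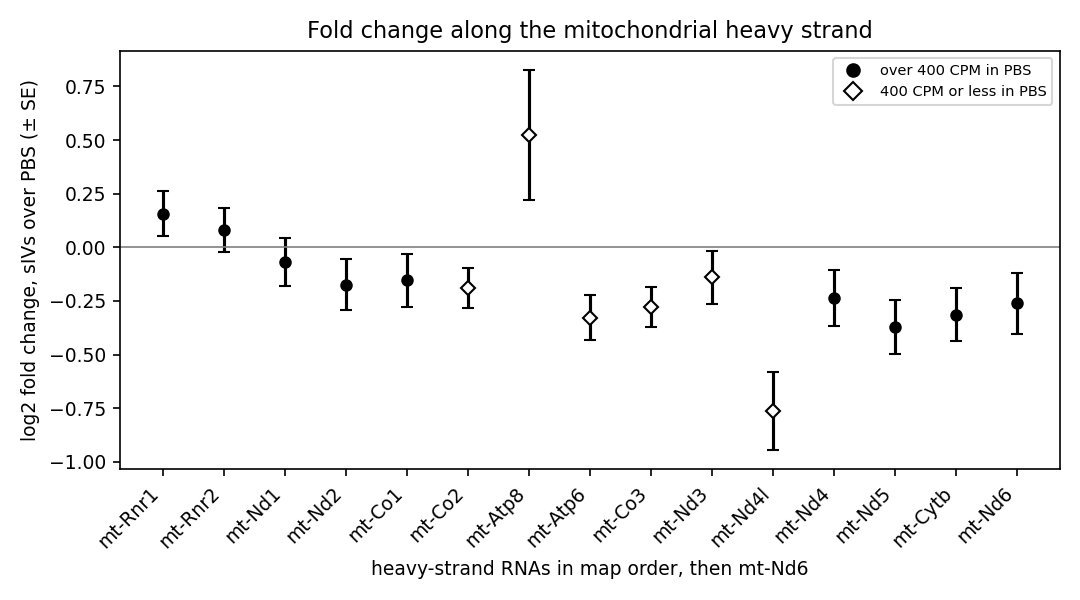
Log2 fold change of sIVs over PBS (points, with bars of ± 1 SE from edgeR) for the 2 mitochondrial ribosomal RNAs and the 13 protein-coding genes. They are in map order, with mt-Nd6 last. Filled circles are those above 400 CPM in PBS and open diamonds the others. The ribosomal RNAs lie at 0.16 and 0.08, mt-Nd1 at -0.07, and mt-Nd5 and mt-Cytb at -0.37 and -0.31.

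Along the chromosome, log2 fold changes were lower for most genes far from the start of the heavy-strand transcript. The ribosomal RNAs mt-Rnr1 and mt-Rnr2, which come first and are not among the 98, had log2 fold changes of 0.16 ± 0.10 and 0.08 ± 0.10. Across the 12 heavy-strand protein-coding genes, the distance from the start of mt-Rnr1 was compared with the log2 fold change. Spearman's correlation was -0.65 and Pearson's r -0.34. The overlapping mt-Nd4l and mt-Nd4, and mt-Atp8 and mt-Atp6, entered as separate genes. Without mt-Atp8 (n = 11) the correlations were -0.66 and -0.50, and over the 6 genes above 1000 CPM in PBS -0.89 and -0.91. The genes share their libraries and partly their precursor RNA, so these are descriptions across genes, chosen after the values were seen.

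Ratios of 2 mitochondrial mRNAs within a library do not depend on the library's scaling. The ratio of mt-Cytb to mt-Nd1 counts was 1.31, 1.30, 1.31 and 1.38 in PBS 1 to 4 and 1.23, 1.12, 1.04 and 1.09 in sIVs 2 to 5. The groups stood apart, sIVs 2 being nearest to PBS. The ratio of mt-Nd5 to mt-Nd2 ran from 1.2945 to 1.3102 in PBS and was 1.21, 1.14, 1.10 and 1.07 in sIVs 2 to 5. The PBS libraries were nearly equal and all sIVs libraries lay below them, sIVs 5 lowest and sIVs 2 nearest.

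The 7 abundant mRNAs gave 21 pairs, with the heavy-strand gene later in the map over the earlier one. The light-strand mt-Nd6 was always set over the other gene. Of the 21, 8 had lower ratios in every sIVs library than in every PBS library and 0 had higher ones. All 8 had mt-Nd4, mt-Nd5 or mt-Cytb in the numerator. The pairs were chosen after their values were seen and share genes, so the count is a description. Of the 3 numerators, mt-Nd5 and mt-Cytb were already lower without overlap as single genes. No share over pairs of other genes was computed. The ratio of the ribosomal RNA mt-Rnr2 to mt-Nd1 was 0.304 ± 0.0146 in PBS and 0.337 ± 0.0182 in sIVs (SD, n = 4), with sIVs 4 inside the PBS range. The ribosomal RNAs lack the long poly(A) tail for which the libraries were selected, so their level here is that of the captured RNA.

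**Figure D3:**
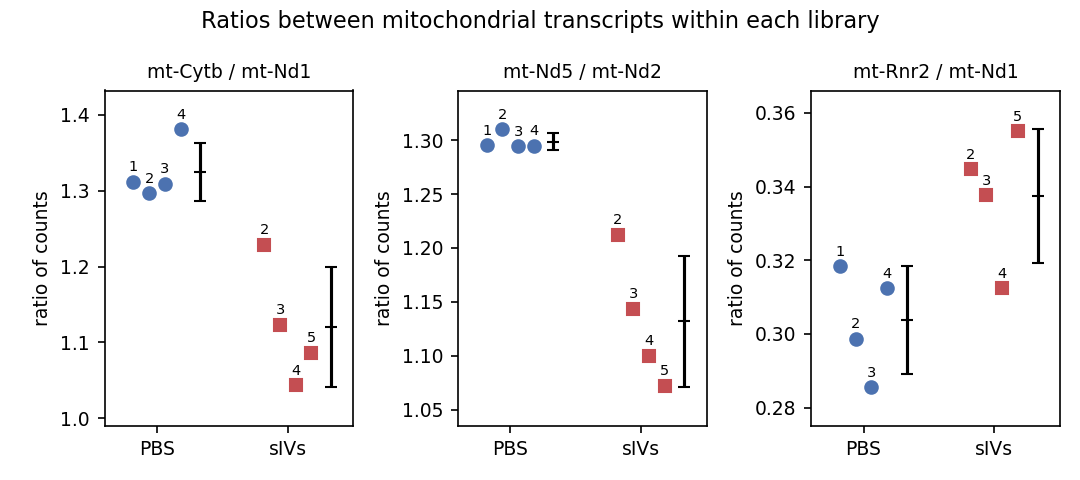
Ratio of counts within each library for mt-Cytb over mt-Nd1, mt-Nd5 over mt-Nd2 and the ribosomal RNA mt-Rnr2 over mt-Nd1; points are libraries with their numbers (PBS blue circles, sIVs red squares), bars are the mean ± SD, n = 4, and the axes do not start at 0. The first 2 ratios are lower in every sIVs library than in every PBS library, and the ratio of mt-Rnr2 to mt-Nd1 overlaps.

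The nuclear genes lay closer to 0. Their median log2 fold change was -0.04, with 53 of 81 negative, and 78 of 81 lay within 0.2 of 0, while the median SE was 0.0866. With library totals as the only scaling, 26 of 81 were negative, and the median was 0.03 where that of all genes was 0.07. None passed edgeR's adjusted threshold. At an unadjusted p under 0.05, 2 were lower (Atp5l and Cox6c) and 2 higher (Sdhb and Ndufa8), and the groups did not overlap for Atp5l (lower) and Sdhb (higher). Read against all genes, where groups stood apart downward in 3.36% and upward in 4.42%, these counts are not above the background.

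Relative to the PBS mean, the nuclear median was -0.05, -0.10, 0.04 and -0.01 on the log2 scale in sIVs 2 to 5, and -0.14 to 0.09 in PBS. All 4 sIVs libraries lay inside the PBS range, sIVs 3 and 4 included. The summed level of the nuclear genes was 4266 to 4980 FPKM in PBS and 4270 to 4726 FPKM in sIVs. That of the mitochondrial genes was 19470 to 24900 FPKM in PBS and 17270 to 19770 FPKM in sIVs, where sIVs 2 overlapped the PBS libraries.

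**Figure D4:**
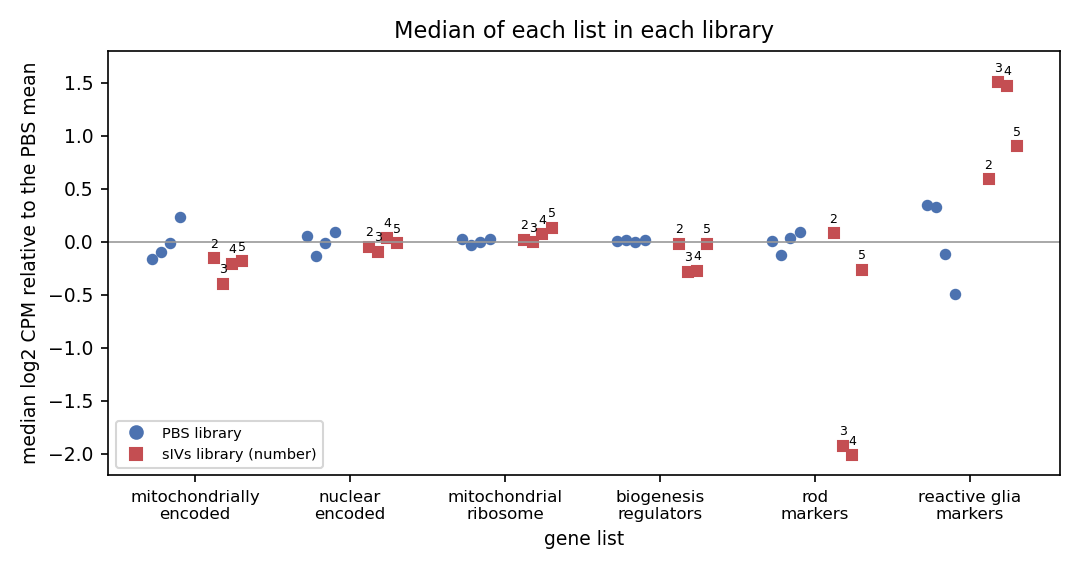
Median log2 CPM relative to the PBS mean of 6 gene lists in each library (PBS blue circles, sIVs red squares with their numbers). The mitochondrially encoded genes lie between -0.40 and -0.16 in sIVs, the nuclear subunits between -0.10 and 0.04, and the rod markers near -2 in sIVs 3 and 4 only.

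By complex, the nuclear medians were -0.05 for complex I (37 tested), 0.06 for complex II (4), -0.06 for complex III (8), -0.05 for complex IV (15) and -0.02 for complex V (17). The mitochondrial medians were -0.24 for complex I (7), -0.31 for mt-Cytb of complex III and -0.19 for complex IV (3). Within complexes I, III and IV the mitochondrial subunits were thus lower than the nuclear median, and for complex V mt-Atp6 and mt-Atp8 lay on opposite sides of it. The difference between the 2 genomes was not tested as such.

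**Figure D5:**
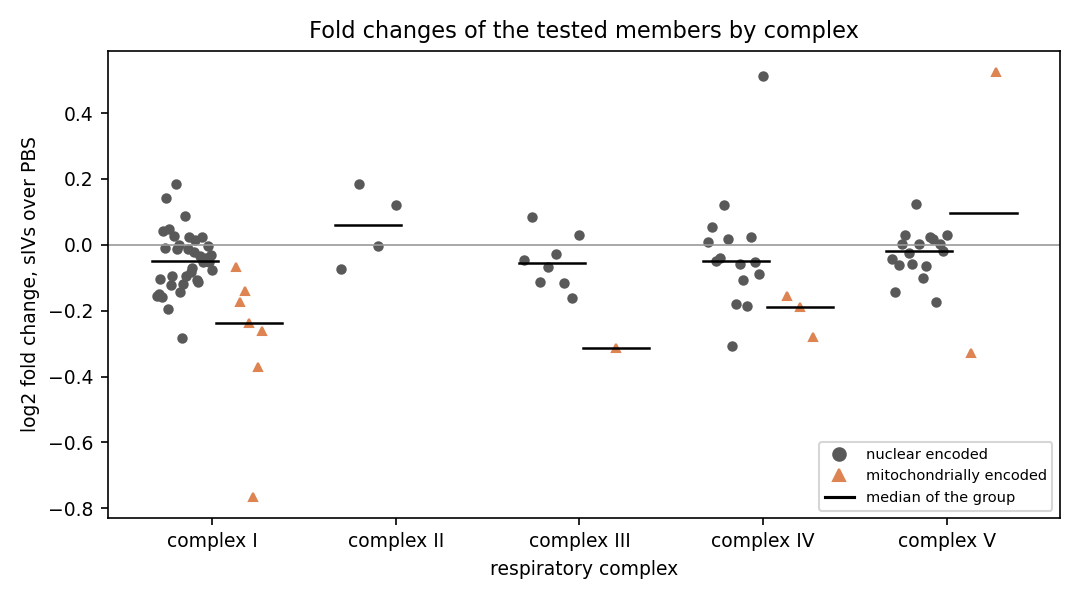
Log2 fold change of sIVs over PBS for the 94 tested genes by respiratory complex, with nuclear genes as grey circles, mitochondrial genes as orange triangles and group medians as black lines. Most nuclear genes lie within 0.2 of 0, and 12 of 13 mitochondrial genes are below 0 (11 with library totals as the only scaling).

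In complex I, which takes electrons from NADH, 27 of 37 nuclear genes were negative and 10 positive. The range was -0.28 to 0.19. Ndufb2, an accessory membrane-arm subunit, was the lowest at -0.28 ± 0.15 (adjusted p = 0.396, edgeR). Ndufa8, an accessory subunit of the intermembrane-space face, stood at 48.2, 40.2, 44.4 and 47.0 CPM in the PBS libraries and 48.1, 49.5, 51.4 and 55.4 CPM in sIVs. Its groups overlapped at sIVs 2, with a log2 fold change of 0.19 ± 0.08 (adjusted p = 0.309, edgeR). The nuclear Ndufb2 shares 146 bases of transcript with its neighbour Braf, so their reads cannot all be told apart.

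Complex II, succinate dehydrogenase, links the TCA cycle to the chain and is wholly nuclear. Sdhb (chromosome 4, 140961203 to 140979193, plus strand), the iron-sulfur subunit, stood at 57.3, 51.8, 51.9 and 54.5 CPM in the PBS libraries and 59.1, 58.2, 66.5 and 61.2 CPM in sIVs. Every sIVs library was above every PBS library, sIVs 4 the most. The log2 fold change was 0.19 ± 0.07 (adjusted p = 0.266, edgeR). Sdhd, a membrane anchor, gave 0.12 ± 0.07, Sdhc, the other anchor, -0.003 ± 0.07, and Sdha, the flavoprotein with the succinate site, -0.07 ± 0.07. The groups of these 3 overlapped.

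In complex III, which passes electrons from ubiquinol to cytochrome c, the 8 nuclear genes ran from -0.16 to 0.08. Uqcrh, the hinge protein, gave -0.16 ± 0.09 (adjusted p = 0.424, edgeR), and Uqcrfs1, the Rieske iron-sulfur protein, -0.12 ± 0.08 (adjusted p = 0.534). Uqcr10, a small subunit with the highest level of the 8 at 90.01 FPKM in PBS, gave -0.04 ± 0.09. None of the 8 had groups standing apart.

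In complex IV, cytochrome oxidase, Cox6c stood at 164, 139, 142 and 150 CPM in the PBS libraries and 141, 121, 130 and 135 CPM in sIVs. sIVs 2 overlapped PBS 2, and the log2 fold change was -0.18 ± 0.08 (adjusted p = 0.318, edgeR). Cox7a2l, a factor that joins complexes III and IV into a supercomplex, stood at 115, 99.9, 114 and 113 CPM in the PBS libraries and 115, 87.7, 92.7 and 92.7 CPM in sIVs. sIVs 2 was level with PBS 1 and the other 3 were below all PBS libraries, with -0.19 ± 0.10 over all (adjusted p = 0.388, edgeR). Cox6b2 had the lowest fold change of the complex at -0.31 ± 0.16 (adjusted p = 0.403, edgeR), and Cox8b the highest at 0.51 ± 0.50 (adjusted p = 0.654) with 7 to 43 counts per library.

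In complex V, Atp5l (chromosome 9, 44912557 to 44920742, minus strand), the g subunit at the dimer interface of ATP synthase, stood at 86.4, 87.7, 85.2 and 79.8 CPM in the PBS libraries and 77.5, 75.1, 73.0 and 75.4 CPM in sIVs. Every sIVs library was below every PBS library, and no library stood far from its group. The log2 fold change was -0.17 ± 0.06 (adjusted p = 0.245, edgeR). A processed pseudogene, Gm10221, is identical to Atp5l over 309 bases and held 2188 counts over the 8 libraries against 10009 for Atp5l, so the division of reads between them is uncertain. Atp5b, the catalytic beta subunit and at 253 FPKM the highest of the complex, gave -0.14 ± 0.09, and Atp5a1, the alpha subunit at 204 FPKM, -0.04 ± 0.07.

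Near-identical copies were common among the nuclear genes too. Another gene aligned at 98% identity or more over at least 100 bases for 28 nuclear and 7 mitochondrial members. For 13 nuclear members such a gene held more than 10% of the member's counts, some being processed pseudogenes and some overlapping neighbours such as Emc8 for Cox4i1 and Gabpa for Atp5j. Levels and fold changes of such genes are uncertain to that extent.

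The nuclear subunits had a median level of 43.4 FPKM in PBS, and 75 of 81 were at 10 FPKM or more. The highest was Cox8a, the ubiquitous form of a small cytochrome oxidase subunit, at 356 FPKM, and the highest of complex I was Ndufa4 at 120 FPKM. Ndufa4, named for complex I but since assigned to cytochrome oxidase, was 34.7 times the level of its hypoxia-linked relative Ndufa4l2 in PBS and 29.2 times in sIVs. The highest of complex II was Sdha at 86.4 FPKM.

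Of the tissue isoforms of cytochrome oxidase, the general forms had the higher level in both groups. The FPKM of Cox6a1 was 384 times that of the muscle form Cox6a2 in PBS, that of Cox8a 116 times that of the muscle form Cox8b, and that of Cox7a2 14.0 times that of the muscle form Cox7a1. In sIVs these ratios were 622, 77.1 and 13.5, the first 2 resting on a muscle form of few counts. The general form Cox4i1 was at 5.39 times the level of the lung and hypoxia-linked form Cox4i2 in PBS and 5.22 times in sIVs. Cox6b1 was at 18.9 times the level of the testis form Cox6b2 in PBS and 23.7 times in sIVs. Of the 3 genes for the same c subunit of the ATP synthase ring, Atp5g3 was highest, at 1.75 times Atp5g2 and 5.63 times Atp5g1 in PBS, and at 1.61 and 5.88 times in sIVs.

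None of the log2 fold changes within these sets passed the adjusted threshold. Cox4i1 and Cox4i2 gave 0.01 ± 0.08 and 0.06 ± 0.11, Cox6a1 0.12 ± 0.10 and Cox6b1 0.02 ± 0.09. Cox7a1 and Cox7a2 gave -0.06 ± 0.27 and -0.11 ± 0.07, and Cox8a -0.09 ± 0.10. Atp5g1, Atp5g2 and Atp5g3 gave -0.06 ± 0.08, 0.12 ± 0.08 and 0.003 ± 0.07, and Ndufa4 and Ndufa4l2 -0.19 ± 0.14 and 0.05 ± 0.20. All of these sets had overlapping groups.

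Many nuclear subunit genes are known targets of the transcription factors NRF1, GABP (NRF2) and YY1. Promoters are shown for Sdhb and Atp5l, the nuclear members whose groups stood apart, and for Cox6a1, which holds 2 kinds of motif. They run from 250 bases before to 50 after the start in RefSeq on GRCm38.p6, and capitals mark matches on either strand to the GABP motif CCGGAAG or the NRF1 motif, which is GCGC, any base, then TGCGC. Sdhb lies at chr4:140961021-140961320 on the plus strand, Atp5l at chr9:44920693-44920992 and Cox6a1 at chr5:115348909-115349208, both on the minus strand.
Sdhb: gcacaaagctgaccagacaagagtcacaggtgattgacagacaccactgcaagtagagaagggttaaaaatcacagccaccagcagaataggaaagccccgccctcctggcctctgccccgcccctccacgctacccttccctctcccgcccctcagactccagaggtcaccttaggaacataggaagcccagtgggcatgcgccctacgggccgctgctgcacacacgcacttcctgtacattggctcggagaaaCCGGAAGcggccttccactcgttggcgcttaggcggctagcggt
Atp5l: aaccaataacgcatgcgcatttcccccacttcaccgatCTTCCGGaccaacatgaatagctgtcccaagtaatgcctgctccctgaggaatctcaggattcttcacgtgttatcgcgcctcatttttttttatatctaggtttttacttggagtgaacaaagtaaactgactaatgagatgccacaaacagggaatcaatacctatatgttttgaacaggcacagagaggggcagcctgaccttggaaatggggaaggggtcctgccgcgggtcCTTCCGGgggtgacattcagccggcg
Cox6a1: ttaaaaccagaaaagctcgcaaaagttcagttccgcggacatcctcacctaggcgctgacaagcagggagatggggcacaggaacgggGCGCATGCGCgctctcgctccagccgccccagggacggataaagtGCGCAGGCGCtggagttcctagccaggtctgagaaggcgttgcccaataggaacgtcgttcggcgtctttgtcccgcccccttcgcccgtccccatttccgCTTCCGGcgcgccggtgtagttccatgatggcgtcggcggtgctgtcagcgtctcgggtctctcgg

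Of the 84 nuclear symbols, 66 matched the RefSeq promoter table. The NRF1 motif was in 25.8% of them (17) against 5.19% of all 27025 symbols, the GABP motif in 24.2% (16) against 9.93%, and the YY1 motif GCCATNTTG in 15.2% (10) against 2.9%. At least 1 of the 3 was in 56.1% (37) against 16.1%. Sdhb and Atp5l, which lay on opposite sides of 0, both held the GABP motif. A match of letters is a description of these windows.

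None of the genes listed here that build or regulate the chain passed edgeR's adjusted threshold. Of 9 further subunits and electron carriers, 0 had an unadjusted p under 0.05, with a median of 0.04. Etfa, an electron transfer flavoprotein subunit, was the lowest in p at 0.20 ± 0.12 (adjusted p = 0.454, edgeR). None of 16 complex I assembly genes (median -0.06) or 29 assembly genes of complexes II to V (median -0.02) had an unadjusted p under 0.05. Ndufaf5 gave -0.28 ± 0.14 and Coa7 -0.30 ± 0.16.

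The 21 tested genes that copy, transcribe or process mitochondrial nucleic acids had a median of -0.07. At an unadjusted p under 0.05, 3 were lower and 2 higher, beside 5.63% and 9.61% of all genes. Lower at an unadjusted p under 0.05 were Lrpprc, which stabilises mitochondrial mRNAs, at -0.16 ± 0.06, Fastkd5, an RNA processing factor, at -0.38 ± 0.17, and Polg2, the accessory subunit of the mitochondrial DNA polymerase, at -0.62 ± 0.25. Higher were Pnpt1, an RNA-degrading exonuclease, at 0.33 ± 0.10 (adjusted p = 0.209, edgeR), and Polg, the polymerase's catalytic subunit, at 0.22 ± 0.10. Lrpprc stood at 89.4, 92.4, 92.9 and 95.9 CPM in the PBS libraries and 87.1, 81.0, 77.1 and 85.4 CPM in sIVs, each sIVs library below each PBS library. Tfam, which packages mitochondrial DNA, and Polrmt, the mitochondrial RNA polymerase, gave -0.08 ± 0.09 and 0.02 ± 0.10.

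The 30 mitochondrial ribosomal protein genes had a median of 0.03, with 0 lower and 4 higher at an unadjusted p under 0.05, where 9.61% of all genes were higher (Mrps6, Mrps16, Mrpl17 and Mrpl3). Mrps6 stood at 12.4, 10.7, 11.6 and 11.5 CPM in the PBS libraries and 14.2, 24.5, 21.6 and 17.1 CPM in sIVs. Every sIVs library was above every PBS library, sIVs 3 and 4 the most. Its log2 fold change was 0.75 ± 0.16 (adjusted p = 0.161, edgeR).

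The 14 biogenesis regulators had a median of -0.13, with 4 lower and 1 higher at an unadjusted p under 0.05, where 5.63% of all genes were lower and 9.61% higher. Lower were the coactivators Ppargc1a and Ppargc1b, at -0.47 ± 0.15 and -0.67 ± 0.20, Esrrg, an estrogen-related receptor, at -0.30 ± 0.09, and Perm1, at -0.21 ± 0.08. Pprc1, a related coactivator, was higher at 0.31 ± 0.11. Ppargc1a stood at 59.8, 63.6, 58.2 and 57.6 CPM in the PBS libraries and 59.3, 35.2, 35.5 and 43.3 CPM in sIVs 2 to 5. sIVs 2 lay within the PBS range and sIVs 3 and 4 were lowest, as the rod markers were. The part of the rod difference in these values was not tested.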

How the data were processed

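RNA from retina of rd10 mice was sequenced in 8 libraries, 4 per group, grouped by title. Per the labels' protocols, poly(A)-selected strand-marked libraries were made, and per the submitters' processing notes the build was mm10; the aligner, counter, annotation, strand setting and handling of reads with several alignments are not given in the sources used here. Counts, as deposited, are whole numbers. FPKM, as deposited, equals the count divided by gene length and library total, times a constant per library (0.93 to 1.03).

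The test was edgeR 4.0.16 under R 4.3.3 on all counts (filterByExpr, TMM scaling, glmQLFit and glmQLFTest, group only, Benjamini-Hochberg over 17725 genes, threshold 0.05), a test also checked on simulated data. The biological coefficient of variation was 17.05%. Alternatives were DESeq2 1.42.0, limma 3.58.1 (voom, and log2 FPKM with a pseudocount of 0.1 or 1), other scalings and filters, each library left out, sIVs 3 and 4 left out, and replicate blocks. Copies were found with blastn 2.17.0 among GENCODE M21 transcripts (95% identity, 100 bases). All pairs of libraries differed beyond sampling noise (lowest chi-square per gene 3.65).

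Members and lists were chosen with earlier results of these data known. Named were all mitochondrial protein genes; per complex the 2 nuclear members of smallest p and the one of highest FPKM; isoform sets; the Sdh genes; and the smallest p of each pathway list. Atp5a1, Tfam, Polrmt and list genes beyond the smallest p were named after their values were seen. Some genes that this rule or a list selects are not reported here.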

Additional observations from a re-analysis of the deposited data

Results flagged for a closer look

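In 3 of 106 groups of 4 libraries examined, 1 library stood apart from the other 3 by more than a critical gap; chance alone gives about 1 in 20. Cox7a2l stood at 99.86 CPM in PBS 2 and at 112.8 to 115.0 CPM in the other PBS libraries. The median of the nuclear complex II genes relative to the PBS mean was 0.186 on the log2 scale in sIVs 4 and 0.0177 to 0.04239 in the other sIVs libraries. The ratio of mt-Nd5 to mt-Nd2 counts was 1.31 in PBS 2 and 1.294 to 1.295 in the other PBS libraries, a gap that is small beside the distance to the sIVs libraries.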

How the results depend on the processing

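Where a value changed, the cause was not tested. The median of the mitochondrial genes stayed negative in every setting run. With 1 library left out it ran from -0.292 to -0.143, nearest to 0 without PBS 4. That of the nuclear genes ran from -0.0767 to -0.00905 and was 0.0341 with library totals only. The difference in share of counts was -0.218 percentage points over all libraries. It ran from -0.287 to -0.0873 with 1 left out, again nearest to 0 without PBS 4. DESeq2 called 1 member lower (mt-Nd4l), and leaving out any library called 0 in either direction. At the adjusted threshold, the fit without sIVs 2 called 461 of 17999 genes and 0 members lower. The counts that follow are at the unadjusted p, and the shares of all genes at that p in these settings are not given here. Members lower at an unadjusted p under 0.05 were 7 in all. They were 4 with library totals only, without sIVs 3 and 4, and with the replicate block by title number. With 1 library left out they were 5 to 14 (14 without sIVs 2). Higher members, 2 in all, were 1 with DESeq2 and with no filter on low counts, 0 without sIVs 3 and 4 and with the block by biosample number, and 0 to 3 with 1 library left out (0 without PBS 2, PBS 3 or sIVs 4, and 1 without sIVs 3 or sIVs 5).

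The replicate numbers did not pair the libraries: correlations of same-numbered deviations were -0.00605, 0.0545 and -0.0605 by title and -0.0749, 0.0412, 0.0977 and 0.0695 by biosample. No block called a member. Signs turned for these named genes, among them Cox8b (0.51 over all libraries) and Ndufa4 (-0.19). The block by title number gave Sdhc 0.0565, Cox7a1 0.222 and Atp5g3 -0.00527. Library totals gave mt-Nd1 0.00719, Sdha 0.00288, Sdhc 0.0735, Uqcr10 0.0341, Cox7a1 0.02 and Atp5g1 0.0197. Without sIVs 3 and 4, Ndufa4 gave 0.0112, Cox4i2 -0.0755, Cox6b1 -0.0787, Cox8b -0.258 and Atp5g3 -0.0129. With 1 library left out, the ranges crossing 0 were -0.0985 to 0.14 for Ndufa4l2, -0.0376 to 0.0302 for Sdhc, -0.0947 to 0.0104 for Uqcr10, -0.0446 to 0.0372 for Cox4i1, -0.0183 to 0.105 for Cox4i2, -0.0472 to 0.0759 for Cox6b1, -0.224 to 0.128 for Cox7a1 and -0.0382 to 0.0316 for Atp5g3. Low counts limit mt-Atp8, Cox8b and Cox7a1.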

Other observations

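Of 13 tested hypoxia response genes, 5 were higher in sIVs at an unadjusted p under 0.05, and all 5 were higher in every sIVs library than in every PBS library. Over all genes these shares were 9.61% and 4.42%. Mt1, a metallothionein, stood at 213, 220, 162 and 89.0 CPM in the PBS libraries and 263, 579, 650 and 480 CPM in sIVs 2 to 5, with a log2 fold change of 1.53 ± 0.32 (adjusted p = 0.158, edgeR). Adm, adrenomedullin, gave 2.18 ± 0.52, Vegfa, the vascular growth factor, 0.31 ± 0.09, Egln3, an oxygen-sensing hydroxylase, 0.65 ± 0.23 and Higd1a, a small inner membrane protein that binds respiratory complexes, 0.15 ± 0.06. None passed the adjusted threshold. Of the 13 genes, 8 were positive and 5 negative, from -0.24 to 2.18, and the list median was 0.10. Reactive glia markers were also higher in sIVs, and their part in these values was not tested.

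Of 21 TCA cycle genes, 14 were negative and 7 positive, and 0 were lower and 2 higher at an unadjusted p under 0.05, near the 9.61% of all genes that were higher: Idh2, the mitochondrial NADP-dependent isocitrate dehydrogenase, at 0.42 ± 0.13 and Suclg2, a succinyl-CoA ligase subunit, at 0.74 ± 0.27. Lower in every sIVs library than in every PBS library were 2 of the 21, where 3.36% of all genes were. They were Dlat, a pyruvate dehydrogenase subunit, at -0.12 ± 0.06, and Idh3a, a subunit of the NAD-dependent isocitrate dehydrogenase, at -0.15 ± 0.07. Neither had an unadjusted p under 0.05 by edgeR, and both were chosen after their values were seen. Ckmt1, the mitochondrial creatine kinase, stood at 84.7, 83.0, 87.9 and 115 CPM in the PBS libraries and 82.0, 32.1, 37.7 and 70.2 CPM in sIVs, with -0.74 ± 0.28 (adjusted p = 0.269, edgeR). It was lowest in sIVs 3 and 4, where rod markers were also lowest, and their part was not tested. The 19 mitochondrial dynamics and mitophagy genes had a median of 0.03, with 9 negative and 10 positive, and Sqstm1, an autophagy receptor with the smallest p of the list, gave 0.34 ± 0.13. Of the 23 glycolysis genes tested, Gapdh stood at 29.5 to 32.9 CPM in the PBS libraries and 147, 28.3, 24.7 and 321 CPM in sIVs 2 to 5. Only sIVs 2 and 5 were above the PBS range, and reads shared with its many pseudogenes were not examined.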
